A study of Mus musculus with 10 samples.

Results

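Complement is a cascade of plasma and cell-surface proteins that marks microbes, immune complexes and dying cells. C1q starts its classical route by binding antibody or apoptotic surfaces, C3 is the hub that all routes cleave, factor B and properdin build and steady the alternative C3 convertase, and the fragments C3a and C5a act on cells through the receptors encoded by C3ar1 and C5ar1. Macrophages are a major tissue source of C1q. The genes described here are 9 complement components and receptors chosen by name, C1qa, C1qb, C1qc, C3, Cfb, Cfp, C3ar1, C5ar1 and Serping1, out of 36528 gene identifiers in the deposited tables. All 9 were found by Entrez identifier and all 9 were among the 13588 genes kept for testing.

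The RNA came from tumour-associated macrophages purified from C57Bl/6 mice bearing tumours of MC-38, a mouse colon carcinoma line. The mice had received anti-MerTK, an antibody against a receptor tyrosine kinase through which macrophages engulf apoptotic cells, or anti-gp120, the control antibody against an HIV envelope protein. Polyadenylated RNA was sequenced 24 h after treatment in 5 anti-MerTK and 5 anti-gp120 libraries, with 33159858 to 46108687 counted reads each. Whether each library stands for its own mouse is not stated in the labels, and the p-values therefore cover only the library-to-library spread, which could be technical. The macrophage marker Adgre1 (F4/80) lay between 1654 and 2330 CPM (read counts scaled to library size) in all 10 libraries and Cd68 between 831 and 1082 CPM. All 5 T cell markers stayed under 1 CPM, as did 4 of 6 neutrophil markers, Ly6g among them at up to 0.0610 CPM. Several lists had members well above that level. Csf3r (neutrophil list) lay at 57.6 to 102.7 CPM and Cd79b (B cell list) at 16.3 to 39.4 CPM over the 10 libraries. Pecam1 (endothelial list) lay at 59.5 to 122 CPM, and Kdr, Cdh5 and Vwf of that list were also above 1 CPM in every library. Xcr1 and Clec9a (dendritic cell list) lay at 11.3 to 50.4 and 5.74 to 38.5 CPM. Cdh1 (epithelial list) lay at 25.6 to 59.8 CPM and was lower after anti-MerTK (edgeR adjusted p = 0.0244). The rest of that list was near 0, with Epcam at up to 0.123, Krt18 at up to 0.144, Krt19 at up to 0.185 and Krt8 at up to 1.56 CPM. Which cells the Cdh1 reads came from was not tested.

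None of the 9 complement genes passed the test after anti-MerTK. In edgeR's quasi-likelihood test over all genes, with a Benjamini-Hochberg adjusted p under 0.05, 0 of the 9 were higher and 0 were lower, against 3.22% of all tested genes called in either direction (1.85% higher and 1.38% lower). At an unadjusted p under 0.05, edgeR gave 1 of the 9, Cfb, where 20.9% of all tested genes reached that level. DESeq2 called 1 of the 9, again Cfb, as did edgeR with 1 surrogate variable, and limma-voom called 0. These settings called more of all genes too: 9.88% with DESeq2, 6.12% with 1 surrogate variable and 7.41% with limma-voom. The DESeq2 share is of the 11741 genes to which it gave an adjusted p, and Serping1 was not among them. The median log2 fold change (anti-MerTK over anti-gp120) was 0.10 over the 9 genes and -0.01 over all tested genes, and 8 of the 9 estimates were positive, as were 49.0% of all estimates. The groups overlapped for all 9 genes, beside 5.97% of all tested genes with groups that did not overlap (3.26% higher and 2.71% lower after anti-MerTK).

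The C1q genes lie side by side on chromosome 4 of GRCm38. C1qb spans 136880126 to 136886200, C1qc 136889801 to 136892936 and C1qa 136895916 to 136898844, by RefSeq's coordinates, so that the cluster fills 18719 bases with gaps of 3600 and 2979 bases. All 3 lie on the minus strand in GENCODE M21. The 250 bases before the start of C1qb and of C1qc are shown because the levels of these genes varied together across the libraries. The window of C1qc is placed by the transcript in RefSeq's promoter table and overlaps the outer edge of its RefSeq gene span. That table, for GRCm38.p6, matched 6 of the 9 genes, and C1qa, Cfb and Serping1 were not among them.
C1qb, chr4:136886201-136886450, minus strand: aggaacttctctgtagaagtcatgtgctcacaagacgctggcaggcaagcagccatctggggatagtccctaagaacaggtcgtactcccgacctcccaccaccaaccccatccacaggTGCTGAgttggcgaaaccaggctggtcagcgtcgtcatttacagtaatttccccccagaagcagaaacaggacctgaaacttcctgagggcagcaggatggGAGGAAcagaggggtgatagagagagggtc
C1qc, chr4:136892915-136893164, minus strand: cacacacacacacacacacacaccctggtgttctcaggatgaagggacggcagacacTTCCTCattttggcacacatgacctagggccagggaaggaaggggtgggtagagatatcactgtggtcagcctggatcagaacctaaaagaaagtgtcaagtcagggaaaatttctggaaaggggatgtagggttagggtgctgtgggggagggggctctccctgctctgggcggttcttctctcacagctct
Capitals mark matches, on either strand, to 4 motifs that were searched: GAGGAA of the myeloid factor PU.1, TGCTGA of a partial site for Maf proteins, the core of the interferon-stimulated response element (GAAA, any 2 bases, GAAA) and TTCNNNGAA of the gamma-activated sequence. C1qb held GAGGAA with its first base 30 bases before the start and TGCTGA 131 bases before it, and C1qc held GAGGAA on the other strand, 193 bases before the start. The interferon-linked motifs were found in neither window. In the other matched windows, TGCTGA was present before C3, C3ar1 and C5ar1, and no motif was found before Cfp. Of all 32851 promoters in the table, 23.3% held GAGGAA, 16.1% TGCTGA, 2.98% the interferon-stimulated core and 7.02% TTCNNNGAA in the same 250 bases. A match to GAGGAA or to TGCTGA, the motifs found here, is therefore common. A match is a run of letters and not a measured site.

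C1q transcripts were among the most abundant of these macrophages in both groups. C1qa, C1qb and C1qc encode the A, B and C chains that assemble into the C1q molecule. Together they took 1.92% ± 0.0267 of all counts in anti-MerTK libraries and 1.87% ± 0.163 in anti-gp120 libraries (SD, n = 5 each). By RPKM, the authors' value per gene length, C1qa ranked between 8 and 13 among all 36528 genes in the 10 libraries, C1qb between 9 and 15, and C1qc between 14 and 16. C1qa averaged 6741 ± 223 RPKM after anti-MerTK and 6589 ± 856 RPKM after anti-gp120 (SD, n = 5 each).

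C1qa gave 7080, 7359, 7316, 7620 and 6943 CPM in anti-MerTK libraries 1 to 5, against 6344, 6134, 7654, 7143 and 8254 CPM in anti-gp120 libraries 1 to 5. C1qb gave 6139, 6512, 6412, 6718 and 6341 CPM in the anti-MerTK libraries, against 5554, 5366, 7112, 6153 and 7135 CPM in the anti-gp120 libraries. For C1qc the anti-MerTK libraries held 5476, 5843, 5548, 5758 and 5257 CPM, and the anti-gp120 libraries 4858, 4543, 5825, 5396 and 6144 CPM. In all 3 genes every anti-MerTK value lay inside the span of the anti-gp120 values, with anti-gp120 libraries 1 and 2 at the bottom and libraries 3 and 5 at the top. The coefficient of variation of C1qa was 3.61% after anti-MerTK and 12.5% after anti-gp120, that of C1qb 3.32% and 13.4%, and that of C1qc 4.18% and 12.4%. This difference in spread was not tested.

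The log2 fold changes were 0.03 for C1qa (SE 0.09, edgeR adjusted p = 0.878), 0.04 for C1qb (SE 0.10, adjusted p = 0.862) and 0.06 for C1qc (SE 0.09, adjusted p = 0.757). Their 95% intervals ran from -0.17 to 0.24 for C1qa, from -0.18 to 0.25 for C1qb and from -0.15 to 0.26 for C1qc on the log2 scale. Without anti-gp120 library 1 or 2 the estimates of C1qa and C1qb were just below 0, at -0.0080 and -0.021 for C1qa and at -0.0052 and -0.018 for C1qb, while those of C1qc were 0.024 and 0.0011.

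C1qa over C1qb in RPKM was 1.11 ± 0.0214 in anti-MerTK libraries and 1.115 ± 0.0337 in anti-gp120 libraries, and C1qb over C1qc was 1.19 ± 0.0384 and 1.21 ± 0.0343 (SD, n = 5 each). C1qa stood above C1qb, and C1qb above C1qc, in 10 of 10 libraries, although the ranges of neighbouring genes over the libraries overlapped. After the mean of each group was subtracted from log2 CPM, C1qa and C1qc correlated with a Pearson r of 0.981 over the 10 libraries (exact permutation within groups, p = 0.000556, adjusted over 36 pairs 0.0188; Spearman rho 0.988, p = 0.000486, adjusted 0.0175). The r was 0.965 for C1qa with C1qb (exact permutation p = 0.00222, adjusted 0.0267; rho 0.976, p = 0.00139, adjusted 0.0250) and 0.951 for C1qb with C1qc (exact permutation p = 0.00333, adjusted 0.0300; rho 0.964, p = 0.00257, adjusted 0.0281). Without anti-gp120 libraries 2 and 5, the farthest from the median, r was 0.956, 0.938 and 0.897 in the same order. All pairs share library and depth.

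**Figure D1:**
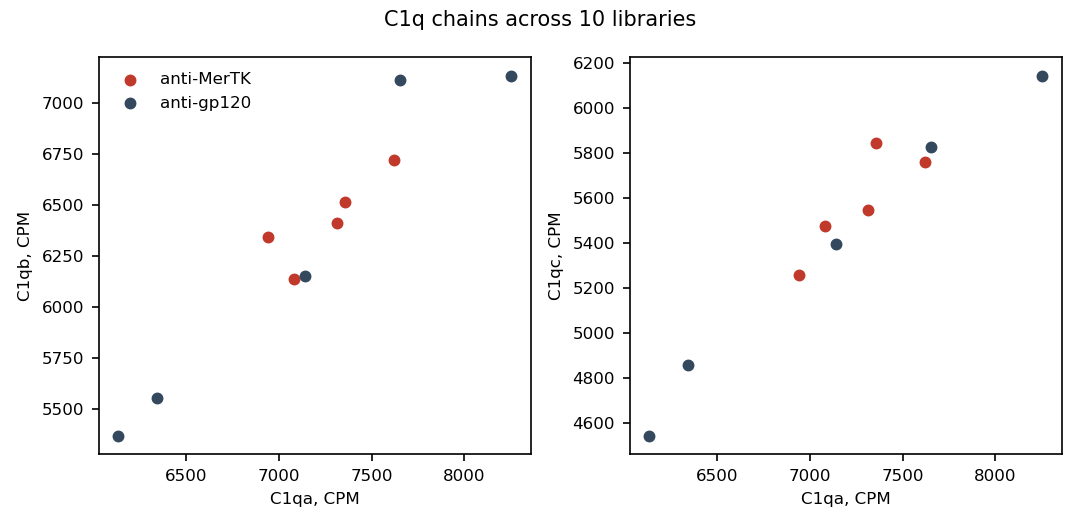
C1qb (left) and C1qc (right) against C1qa, in CPM, with 1 point per library and axes that do not start at 0. The 10 libraries fall along a line from anti-gp120 library 2 (C1qa 6134 CPM) to anti-gp120 library 5 (C1qa 8254 CPM), with the anti-MerTK libraries between 6943 and 7620 CPM.

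The genes most like the C1q mean in the same group-centred values, of 10677 named genes whose log2 CPM averaged 1 or more, were Ddrgk1 (r = 0.967), Itm2c (r = 0.966) and Sirt7 (r = 0.952), over 10 libraries. These r are raised by picking the highest of 10677 over so few libraries, and the likeness was not tested. Ddrgk1 takes part in the protein modification called UFMylation, Itm2c encodes a small transmembrane protein and Sirt7 a sirtuin deacetylase of the nucleolus. None passed the test after anti-MerTK (log2 fold changes 0.03, -0.03 and 0.05, edgeR adjusted p = 0.862, 0.886 and 0.747). They lie on chromosomes 2, 1 and 11, away from the C1q cluster.

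Below the C1q genes came a step to the remaining members. C1qc exceeded Cfb, the next in order of mean RPKM, by 10.9-fold to 21.4-fold within a library. Cfb averaged 376 ± 91.1 RPKM in anti-MerTK libraries and 259 ± 49.4 RPKM in anti-gp120 libraries, Cfp 255 ± 35.7 and 237 ± 23.1 RPKM, and C3ar1 250 ± 43 and 212 ± 21.2 RPKM (SD, n = 5 each). These 3 genes overlapped in level: Cfb exceeded Cfp in 8 of 10 libraries and Cfp exceeded C3ar1 in 7 of 10. C5ar1 followed at 130 ± 15.5 and 116 ± 11.1 RPKM, then C3 at 66.0 ± 16.99 and 72.9 ± 17.01 RPKM. C3ar1 exceeded C5ar1, and C5ar1 exceeded C3, in all 10 libraries. Serping1 was at the bottom, at 0.222 ± 0.128 RPKM after anti-MerTK and 0.178 ± 0.125 RPKM after anti-gp120.

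**Figure D2:**
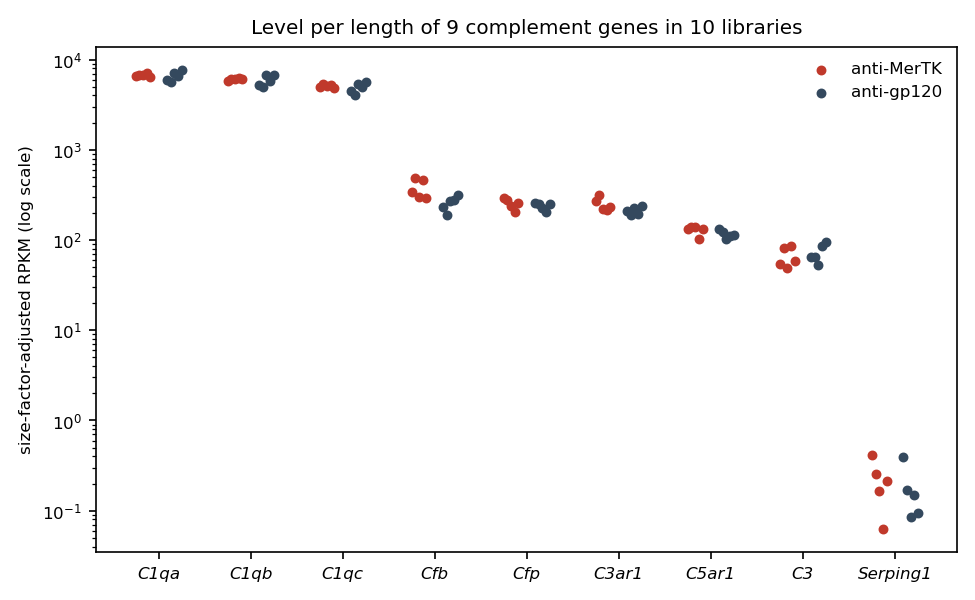
Size-factor-adjusted RPKM of the 9 complement genes on a log axis, ordered by mean level, with 1 point per library and anti-MerTK left of anti-gp120. The C1q genes lie between 4090 and 7661 RPKM, the next 5 between 49.1 and 487 RPKM, and Serping1 between 0.0620 and 0.412 RPKM.

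Cfb, the serine protease subunit of the alternative C3 convertase, had the largest estimate among the 9. Its gene lies on chromosome 17, 34856374 to 34862514. Cfb gave 944, 1363, 832, 1289 and 822 CPM in anti-MerTK libraries 1 to 5, against 641, 542, 753, 783 and 892 CPM in anti-gp120 libraries 1 to 5. Anti-MerTK libraries 1, 2 and 4 lay above every anti-gp120 library, and libraries 3 and 5 lay below the highest of them. The mean was 1050 ± 258 CPM after anti-MerTK and 722 ± 134 CPM after anti-gp120 (SD, n = 5 each). The log2 fold change was 0.54 (SE 0.17, 95% interval 0.16 to 0.92), with an unadjusted p = 0.00902 and an adjusted p = 0.107 in edgeR, so Cfb did not pass over all genes. It passed with DESeq2 (adjusted p = 0.0243) and with 1 surrogate variable in edgeR (adjusted p = 0.00811), and over all alternatives its adjusted p ranged from 0.00811 to 0.222 with every estimate positive. GENCODE M21 places a readthrough gene, Gm20547, over Cfb and its neighbour C2. No gene of that symbol was found among the 31049 of 36528 identifiers that could be named. Whether an unnamed identifier stands for it is not known, and how reads from it were counted was not tested.

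Properdin, encoded by Cfp, stabilises the convertase that factor B helps to form. Cfp gave 702, 667, 558, 491 and 612 CPM in the anti-MerTK libraries, against 609, 604, 530, 481 and 602 CPM in the anti-gp120 libraries. The groups overlapped through most of their range, and the log2 fold change was 0.10 (SE 0.11, 95% interval -0.13 to 0.33, edgeR adjusted p = 0.624).

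C3, the substrate of every C3 convertase, was the only member of the 9 with a negative estimate. Values were 274, 420, 250, 443 and 299 CPM in the anti-MerTK libraries and 331, 340, 271, 441 and 483 CPM in the anti-gp120 libraries. C3 varied by nearly as much inside each group as over both, with coefficients of variation of 26.1% after anti-MerTK and 23.2% after anti-gp120. Its log2 fold change was -0.15 (SE 0.19, 95% interval -0.57 to 0.28, edgeR adjusted p = 0.705), and -0.035 without anti-gp120 library 5.

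C3ar1 and C5ar1, which encode receptors for C3a and C5a, had positive estimates that did not pass. C3ar1 (chromosome 6, 122847140 to 122856157) gave 1153, 1356, 939, 916 and 987 CPM in the anti-MerTK libraries, against 893, 826, 963, 831 and 1028 CPM in the anti-gp120 libraries. Anti-MerTK libraries 1 and 2 lay above every anti-gp120 library and the other anti-MerTK libraries among them. Its log2 fold change was 0.24 (SE 0.12, 95% interval -0.01 to 0.49, edgeR adjusted p = 0.261), and 0.14 without anti-MerTK library 2.

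C5ar1 (chromosome 7, 16246743 to 16259540) gave 343, 359, 356, 264 and 342 CPM in the anti-MerTK libraries, against 336, 318, 260, 283 and 292 CPM in the anti-gp120 libraries. Anti-MerTK libraries 1, 2, 3 and 5 lay above every anti-gp120 library and library 4 near the lowest. The log2 fold change of C5ar1 was 0.16 (SE 0.10, 95% interval -0.05 to 0.37, edgeR adjusted p = 0.373). C5ar2, which encodes another C5a receptor, lies 2588 bases from C5ar1 and averaged 14.4 ± 1.77 CPM after anti-MerTK and 16 ± 1.62 CPM after anti-gp120 (-0.15 ± 0.10 SE on the log2 scale, adjusted p = 0.412 in edgeR, chosen once its values were known).

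Serping1 encodes the C1 inhibitor, which blocks the proteases of the classical and lectin routes. It was barely detected, at 0.747, 0.463, 0.298, 0.113 and 0.390 CPM in the anti-MerTK libraries and 0.714, 0.312, 0.153, 0.271 and 0.172 CPM in the anti-gp120 libraries. The highest values were those of library 1 in each group, and the groups overlapped throughout. The log2 fold change of 0.30 (SE 0.50, 95% interval -0.79 to 1.40, edgeR adjusted p = 0.767) became -0.068 without anti-MerTK library 1. Fibroblasts are a known source of C1 inhibitor, and their markers summed to 6.27 to 41.6 CPM in the anti-MerTK libraries and 7.17 to 29.6 CPM in the anti-gp120 libraries over 6 genes, of which Lum was at 0 in some libraries and at most 0.502 CPM. None of the 5 fibroblast markers tested passed, and their part in the Serping1 values was not tested.

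**Figure D3:**
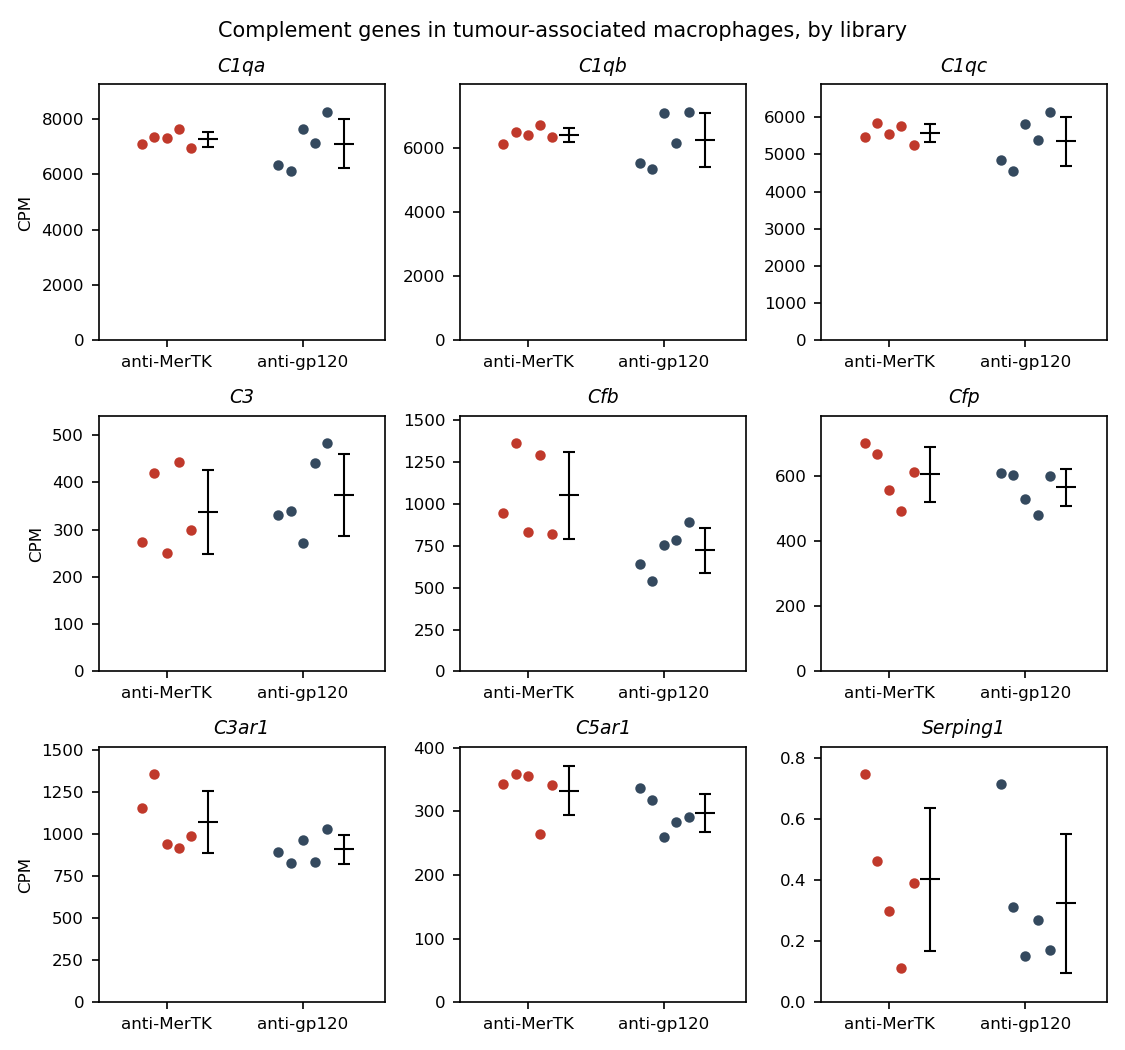
CPM of the 9 complement genes, with 1 point per library in the order of libraries 1 to 5, and the mean ± SD of each group beside the points. Anti-MerTK is left of anti-gp120 in every panel, each axis starts at 0, and the groups overlap in all 9 panels.

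Other pairs of the 9 genes were related less closely than the C1q chains. Cfb varied with C1qc across libraries (r = 0.785, exact permutation p = 0.00104, adjusted 0.0188; rho 0.806, p = 0.00313, adjusted 0.0281) and with C1qa (r = 0.721, exact permutation p = 0.00444, adjusted 0.0320; rho 0.794, p = 0.00451, adjusted 0.0325) after group means were subtracted. Cfb with C1qb, the remaining C1q chain, did not pass (r = 0.650, exact permutation adjusted p = 0.0797, and rho 0.709, adjusted p = 0.0820). Without anti-gp120 libraries 2 and 5, the r of Cfb was 0.670 with C1qc, 0.547 with C1qa and 0.415 with C1qb. Among the remaining pairs, C1qb with Serping1 (r = -0.685, exact permutation adjusted p = 0.0438) and C5ar1 with Serping1 (r = 0.828, exact permutation adjusted p = 0.0468) passed by Pearson's r and not by rank (adjusted p = 0.0820 and 0.0811), and Serping1 was under 1 CPM in every library.

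Beyond the 9 genes, 46 further genes of the pathway were listed, and 22 of them were expressed enough to be tested. None passed: 0 were higher and 0 lower in edgeR, with 5 of 22 at an unadjusted p under 0.05, near the 20.9% of all tested genes. DESeq2 called 1 of the 22 higher, Masp1, and limma-voom called 0. DESeq2 gave no adjusted p to Masp2, Cd46 and Cd59b, and it called 9.88% of the 11741 genes that had one. The median log2 fold change of the 22 was 0.11, beside -0.01 over all tested genes, and 14 estimates were positive and 8 negative.

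The other listed genes of the classical and lectin routes had positive estimates in 8 of 8 tested genes, beside 49.0% of all tested genes, with a median log2 fold change of 0.52, and 0 of the 8 passed. Masp1, a protease of the lectin route, gave 18.4, 41.6, 18.8, 12.2 and 5.60 CPM in anti-MerTK libraries 1 to 5, against 8.65, 4.97, 4.21, 3.73 and 10.4 CPM in anti-gp120 libraries 1 to 5. Anti-MerTK libraries 1 to 4 lay above every anti-gp120 library and library 5 inside their range. Its log2 fold change was 1.59 (SE 0.49, 95% interval 0.51 to 2.67, edgeR adjusted p = 0.102). Masp1 passed with DESeq2 (adjusted p = 0.0324) and in edgeR without anti-MerTK library 5 (adjusted p = 0.0417). Without anti-MerTK library 2 its log2 fold change was 1.11 (edgeR adjusted p = 0.213), and its adjusted p over all alternatives ranged up to 0.244.

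C4a, C4b and C2 share the stretch of chromosome 17 that holds Cfb. C4b and C2 supply the parts of the classical C3 convertase. C4a gave 88.3, 104, 62.9, 76.6 and 42.9 CPM in the anti-MerTK libraries, against 55.6, 47.1, 51.7, 56.0 and 51.7 CPM in the anti-gp120 libraries. C4b gave 257, 299, 164, 220 and 112 CPM in the anti-MerTK libraries, against 139, 136, 143, 168 and 155 CPM in the anti-gp120 libraries. In both genes anti-MerTK library 5 was the lowest of all 10, and libraries 1, 2 and 4 were the highest. The log2 fold changes were 0.52 for C4a (SE 0.19, edgeR adjusted p = 0.152) and 0.50 for C4b (SE 0.22, adjusted p = 0.215 in edgeR, chosen once its values were known), and without anti-MerTK library 5 they were 0.66 for each with adjusted p = 0.0152 and 0.0284 in edgeR. That setting called 4.77% of all genes. In 8 libraries, without anti-MerTK libraries 2 and 5, C4a passed (edgeR adjusted p = 0.0304) and C4b did not, where 1.47% of all genes were called. Those 2 libraries were the highest and lowest of the anti-MerTK group in both genes, so leaving out both narrows the spread by itself. The log2 fold change of C4a was then 0.54, with an SE of 0.11. Without anti-MerTK library 2 alone the log2 fold changes were 0.37 for C4a and 0.35 for C4b, with adjusted p = 0.302 and 0.413 in edgeR. C4a and C4b are near-identical copies that can split or lose uniquely aligning reads, so their separate values are uncertain.

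C2, whose gene lies 87 bases from Cfb, gave 11.6, 8.98, 6.85, 13.6 and 5.32 CPM in the anti-MerTK libraries, against 4.67, 5.02, 3.63, 7.39 and 7.75 CPM in the anti-gp120 libraries. Its groups overlapped, and its log2 fold change was 0.70 (SE 0.27, adjusted p = 0.172 in edgeR, chosen once its values were known).

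**Figure D4:**
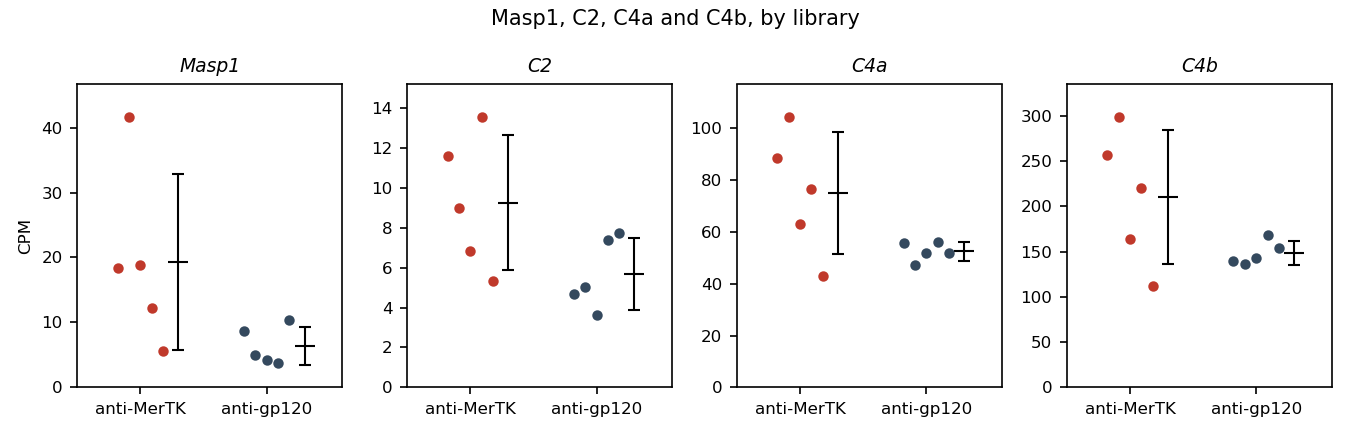
CPM of Masp1, C2, C4a and C4b, with 1 point per library in the order of libraries 1 to 5, and the mean ± SD of each group beside the points. In all 4 genes anti-MerTK library 5 lies within or below the span of the anti-gp120 libraries, while the highest value is an anti-MerTK library.

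Later steps of the cascade were scarcely represented. Only 2 of 8 listed genes of factor D and the terminal pathway were tested, with C6 at 0.805 ± 0.482 CPM after anti-MerTK and 1.49 ± 0.983 CPM after anti-gp120 (-0.89 ± 0.55 SE on the log2 scale, adjusted p = 0.377 in edgeR) and C8g at 1.55 ± 0.296 and 1.78 ± 0.370 CPM (-0.19 ± 0.19 SE on the log2 scale, adjusted p = 0.599 in edgeR). Cfd, which encodes the protease that cleaves factor B, had 1 read in all 10 libraries together, and Hc, the mouse gene for C5, had 11. No read was counted for C7, C8a or C8b, where a count of 0 allows up to 0.0651 to 0.0905 CPM per library (3 counts, counting error only). Cfd, Hc, C7, C8a and C8b were named after their values were seen.

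Regulators had 5 of 14 listed genes tested, with 1 positive and 4 negative estimates and a median log2 fold change of -0.14. Cr1l, which encodes the rodent membrane regulator Crry, averaged 82.5 ± 2.93 CPM after anti-MerTK and 90.9 ± 9.07 CPM after anti-gp120 (-0.14 ± 0.07 SE on the log2 scale, adjusted p = 0.279 in edgeR). Cd46, a membrane cofactor, averaged 0.853 ± 0.177 and 1.15 ± 0.317 CPM (-0.42 ± 0.24 SE on the log2 scale, adjusted p = 0.328 in edgeR).

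The list of other complement receptors and C1q-binding proteins, C5ar2 included, had 7 of 8 genes tested, with 5 positive and 2 negative estimates and a median log2 fold change of 0.04. Itgax, the alpha chain of complement receptor 4, averaged 798 ± 183 CPM after anti-MerTK and 993 ± 112 CPM after anti-gp120 (-0.32 ± 0.14 SE on the log2 scale, adjusted p = 0.233 in edgeR). Cd93, a surface protein first described as a C1q receptor, averaged 438 ± 67.1 and 382 ± 45.4 CPM (0.20 ± 0.11 SE on the log2 scale, adjusted p = 0.336 in edgeR).

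**Figure D5:**
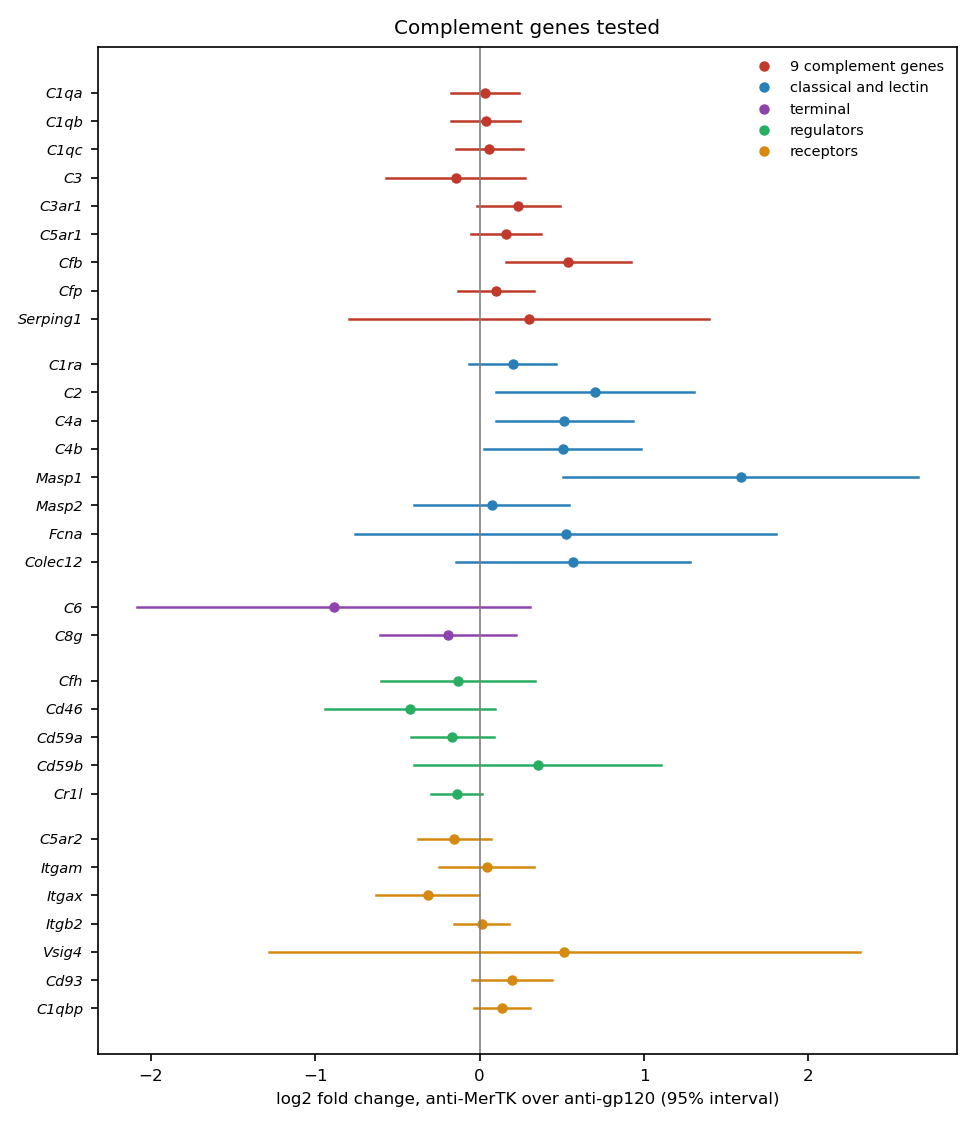
Log2 fold change (anti-MerTK over anti-gp120) with its 95% interval for the 9 complement genes and the 22 other complement genes tested, grouped by role. The C1q genes lie near 0 at 0.03 to 0.06, Masp1 lies farthest to the right at 1.59, and no gene passed the adjusted threshold.

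Other cells can add to the values of bulk RNA, in which fewer cells of a type and less RNA per cell cannot be told apart. The 8 monocyte markers summed to 718 to 1554 CPM in the anti-MerTK libraries and 483 to 1276 CPM in the anti-gp120 libraries, none was at 0, and 1 of 8, Plac8, was higher (34.4 to 110 CPM after anti-MerTK and 5.77 to 32.7 CPM after anti-gp120, edgeR adjusted p = 0.0346). The 6 dendritic cell markers summed to 48.3 to 91.7 and 24.6 to 63.6 CPM with 0 of 4 tested markers passing. Their part in the values of Cfb, Masp1, C2 and C4b was not tested. Macrophage markers had 1 of 8 higher, Fcgr1, and summed to 13100 to 17980 CPM after anti-MerTK and 12770 to 20940 CPM after anti-gp120.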

How the data were processed

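The authors aligned reads with GSNAP to GRCm38, per the submitters' processing notes; for the annotation release, counting tool and strand handling, details were not given in the sources used here. Per the file headers, the deposited counts hold uniquely aligned reads per gene model, and the deposited RPKM were scaled by library size factors that the authors computed. RPKM was used to compare levels between genes and to recover the authors' size factors. RefSeq's GRCm38.p6 table gave names to 31049 of 36528 Entrez identifiers.

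Genes were kept by filterByExpr (13588) and tested with edgeR 4.0.16 (quasi-likelihood, TMM, robust, R 4.3.3), 5 anti-MerTK against 5 anti-gp120 libraries with no covariate, two-sided, adjusted by Benjamini-Hochberg over all tested genes. CPM uses TMM library sizes, and log2 CPM a prior count of 2. SE is the log2 fold change divided by the square root of F and is approximate, as are the 95% intervals. The fit was tested on simulated data. No libraries agreed within sampling noise (smallest chi-square per degree of freedom 29.0). Libraries are numbered in accession order, which pairs none of them.

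Alternatives were RLE, upper quartile and the authors' size factors, no filter, at least 5 CPM in 5 libraries, DESeq2 1.42.0, limma-voom (limma 3.58.1), 1 surrogate variable (sva 3.50.0), an adjusted p under 0.01, 8 libraries without anti-MerTK libraries 2 and 5, and leaving out each library. The members and lists were chosen with earlier results of these data known. Named genes were the 9 members, the 2 of smallest p in each of 4 lists of other complement genes, and the 3 genes most like the C1q mean; others are marked in the text. Other marker lists gave 0 of 2 neutrophil, 0 of 1 T cell, 0 of 2 B cell, 0 of 1 mast cell and 0 of 4 endothelial markers past the threshold, and 1 of 1 tested epithelial marker lower (Cdh1, log2 fold change -0.72).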

Additional observations from a re-analysis of the deposited data

Results flagged for a closer look

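Among 62 sets of 5 libraries (31 complement genes in each group), 3 had a library that stood apart from the other 4, where chance gives about 5% of sets. C5ar1 was at 264 CPM in anti-MerTK library 4, the lowest of its group, with the other anti-MerTK libraries between 342 and 359 CPM. Serping1 was at 0.714 CPM in anti-gp120 library 1, with the other anti-gp120 libraries between 0.153 and 0.312 CPM. C1qbp, a mitochondrial protein that binds C1q, was at 94.1 CPM in anti-MerTK library 3, with the other anti-MerTK libraries between 75.7 and 80.9 CPM.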

How the results depend on the processing

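No paired analysis was possible because the labels give no replicate numbers. The count of 0 higher and 0 lower among the 9 genes held under the alternatives run except DESeq2 and 1 surrogate variable, which each gave 1 higher (Cfb, adjusted p = 0.0243 and 0.00811, against 0.107); the cause was not tested. Among the 22 other genes, 0 higher became 1 with DESeq2 (Masp1) and 1 in 8 libraries without anti-MerTK libraries 2 and 5 (C4a, edgeR adjusted p = 0.0304, a setting that called 1.47% of all genes). Those 2 libraries held the highest and lowest C4a values of the anti-MerTK group. With 1 library left out, the count ranged from 0 to 3, the 3 being C4a, C4b and Masp1 without anti-MerTK library 5, where calls over all genes also grew to 370 higher and 284 lower, against 251 and 187; the cause was not tested. With 1 library left out, log2 fold changes ranged from -0.021 to 0.091 for C1qa, -0.018 to 0.090 for C1qb and -0.068 to 0.80 for Serping1, which changed sign, and from 0.43 to 0.63 for Cfb, 0.14 to 0.29 for C3ar1, 0.12 to 0.23 for C5ar1, 0.041 to 0.17 for Cfp, 0.0011 to 0.11 for C1qc and -0.26 to -0.035 for C3, which did not. Over all 170 values recomputed for the 9 genes, 163 kept direction and side of the threshold, 5 changed sign and 2 passed the threshold. The 163 include Serping1 in DESeq2, which gave it no adjusted p, so only its direction could be compared. Depth limits Serping1, which was under 1 CPM in every library.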

Other observations

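Fcna and Vsig4 swung widely between libraries of the same group, a pattern chosen after their values were seen. Fcna, a ficolin that starts the lectin route, gave 21.2, 10.2, 7.70, 6.10 and 25.5 CPM in anti-MerTK libraries 1 to 5, against 14.1, 13.8, 3.33, 15.6 and 2.23 CPM in anti-gp120 libraries 1 to 5. Vsig4, the complement receptor of the immunoglobulin family found on tissue macrophages, gave 3.18, 0.340, 0.848, 0.567 and 3.71 CPM in the anti-MerTK libraries, against 2.36, 0.840, 0.183, 2.44 and 0.221 CPM in the anti-gp120 libraries. Both were highest in anti-MerTK libraries 1 and 5 and lowest in anti-gp120 libraries 3 and 5, and neither passed in edgeR (adjusted p = 0.645 and 0.754). The same anti-gp120 libraries 3 and 5 held the highest C1qa levels of their group, 7654 and 8254 CPM.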
